A study of Mus musculus with 6 samples.

Results

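The genes described here encode 10 secreted proteins of the liver's extracellular matrix: dermatopontin (Dpt), the small leucine-rich proteoglycans decorin (Dcn), lumican (Lum), biglycan (Bgn), fibromodulin (Fmod) and osteoglycin (Ogn), and the matricellular or fibre-associated proteins SPARC (Sparc), thrombospondin 1 (Thbs1), fibulin 5 (Fbln5) and tenascin X (Tnxb). They are 10 of the 24346 gene names in the expression table, matched by symbol, and each symbol was found once. The set was chosen on values from the same comparison: in an earlier reading of these livers Dpt had the largest drop among matrix genes on the log2(FPKM + 1) scale, and the others joined it by family. The differences between groups are therefore a description. Counts of members from the fit over all genes are printed only beside the share of all genes, and they support nothing about the members.

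The mice were male, of the strain C57BL/6 in the labels and C57BL/6J in the methods, and 8 weeks old when the diet started, and were fed CDAHFD for 6 weeks, a high-fat diet that lacks choline and is defined in its amino acids, which models nonalcoholic steatohepatitis. They were then returned to normal chow and their livers were taken 2 weeks later. The control group (Cont, 3 livers) received AAV8 with the lipid droplet-targeting sequence (LDTS) of mouse perilipin 1 joined to an LC3-interacting region made inactive by mutation, named LDTS-LIR mut, while the lipophagy group (LIR, 3 livers) received AAV8 with the same targeting sequence joined to an engineered LC3-interacting region (LDTS-eLIR), which recruits autophagosomes to lipid droplets. Both constructs carried mCherry and were driven by the thyroxine-binding globulin promoter, which is active in hepatocytes, so the mesenchymal cells that make most of these proteins were not the target of the vector, and no liver was without LDTS. Bulk RNA of whole liver was measured in 1 library per sample. Each sample is called a liver here, though the labels do not state separate animals. Levels are in FPKM (fragments per kilobase of transcript and M mapped fragments), a unit per length in which genes can be compared with each other.

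Collagen made by fibroblasts and hepatic stellate cells assembles into fibrils outside the cell, and small leucine-rich proteoglycans bind along those fibrils and set their spacing and width. Decorin and biglycan carry chondroitin or dermatan sulfate chains, lumican and fibromodulin can carry keratan sulfate, and several of them bind transforming growth factor beta (TGF-β). Matricellular proteins are secreted into the matrix but act mainly on cells and on matrix assembly. In fibrotic liver the matrix builds up around portal tracts, bile ducts and sinusoids.

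Of the 10 genes, 7 had a RefSeq promoter window on GRCm38.p6 (Dcn, Lum and Thbs1 were not among them). The 150 bases before the start site are shown 5′ to 3′ for Dpt, which had the largest difference on the log2(FPKM + 1) scale, and for Bgn, Fmod and Sparc, which did not overlap between groups and differed most among the rest of the 7. Capitals mark matches, searched on both strands, of the box bound by the basal machinery (letters TATAAA), the AP-1 motif (TGANTCA), the SMAD motif (CAGAC), the TEAD motif (GGAATG) or the GC box (GGGCGG). The windows lie at chr1:164796513-164796662 (+), chrX:73483451-73483600 (+), chr1:134037104-134037253 (+) and chr11:55420081-55420230 (-).
Dpt: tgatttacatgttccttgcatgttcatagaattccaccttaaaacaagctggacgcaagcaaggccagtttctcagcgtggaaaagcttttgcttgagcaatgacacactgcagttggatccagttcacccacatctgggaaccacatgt
Bgn: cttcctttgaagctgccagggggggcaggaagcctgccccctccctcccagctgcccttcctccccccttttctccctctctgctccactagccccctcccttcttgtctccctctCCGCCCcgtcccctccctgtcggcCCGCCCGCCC
Fmod: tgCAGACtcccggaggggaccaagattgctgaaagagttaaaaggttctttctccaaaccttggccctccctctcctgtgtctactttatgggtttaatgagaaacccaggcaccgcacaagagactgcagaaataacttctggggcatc
Sparc: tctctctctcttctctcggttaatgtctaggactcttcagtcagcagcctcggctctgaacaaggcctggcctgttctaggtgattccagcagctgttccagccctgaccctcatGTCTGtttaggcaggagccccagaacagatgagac

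These windows differed in composition, with 70.0% G or C in Bgn against 54.0% in Sparc, 49.3% in Fmod and 45.3% in Dpt. Bgn held 3 GC boxes, all read on the opposite strand, starting 34, 10 and 6 bases before the start site, and the last pair overlap in the print. No motif fell in the printed Dpt window, and its TATAAA began 13 bases into the transcript as the table places the start. Over the full windows of 250 bases before and 50 after the start, CAGAC was found in 4 of the 7 genes and in 49.6% of all 32851 windows, GGGCGG in 2 of the 7 and in 35.7%, TATAAA in 2 and in 13.6%, TGANTCA in 1 and in 7.81%, and GGAATG in 1 and in 14.7%. None of these matches was tested for binding. The Sparc window lies inside the gene span given below, and the end of the Dpt window runs into its span. RefSeq and GENCODE place these starts differently.

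**Figure D1:**
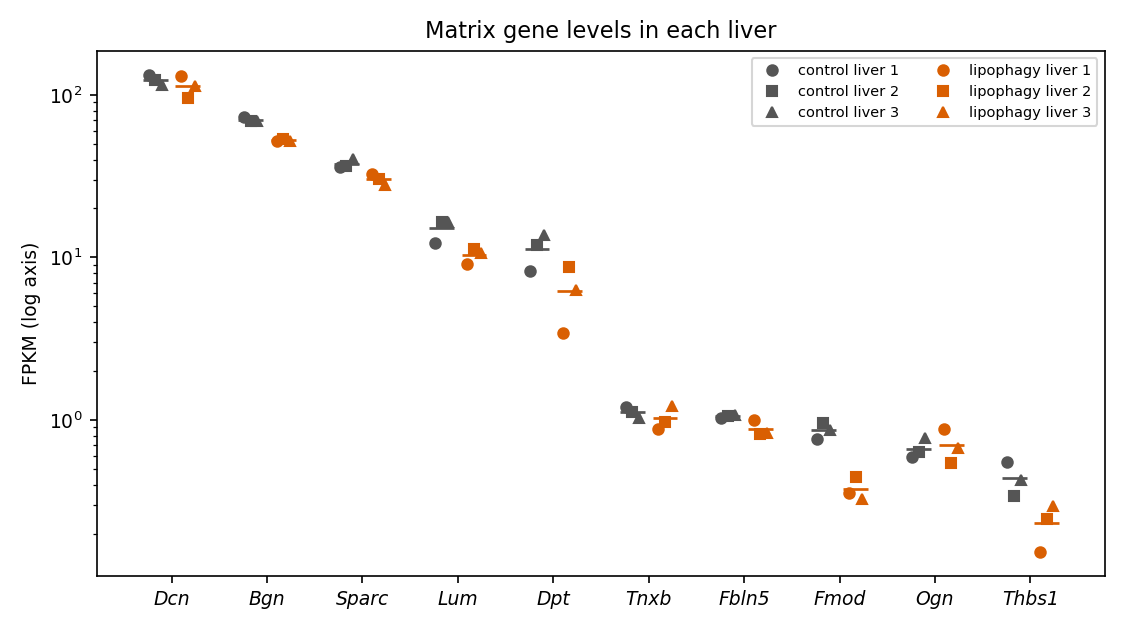
Level of each matrix gene in FPKM (log axis) in the 3 control livers (grey) and 3 lipophagy livers (orange). Each symbol is 1 liver and each bar a group mean. Levels span from Dcn, the highest in every liver, to Thbs1, the lowest, and Bgn, Sparc, Lum, Fmod, Fbln5 and Thbs1 have no overlap between groups.

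Decorin was by far the most abundant. Control means ran from 124 ± 9.30 FPKM for Dcn through 70.1 ± 2.11 for Bgn, 37.7 ± 2.52 for Sparc, 15.1 ± 2.51 for Lum and 11.2 ± 2.79 for Dpt down to 1.12 ± 0.0929 for Tnxb, 1.05 ± 0.0167 for Fbln5, 0.864 ± 0.0950 for Fmod, 0.666 ± 0.0947 for Ogn and 0.441 ± 0.109 for Thbs1 (SD, n = 3). Among neighbours in this order, Lum and Dpt, Tnxb and Fbln5, and Fmod and Ogn overlapped between the control livers, while the other neighbours did not. Lipophagy livers gave nearly the same order, except that Fmod moved from place 8 to place 9, below Ogn. Decorin made up 44.3% to 50.02% of the summed FPKM of the 10 genes in control livers and 47.0% to 56.4% in lipophagy livers. That sum was 266, 261 and 259 FPKM in the control livers and 230, 202 and 212 FPKM in the lipophagy livers.

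Of the 10 genes, 9 were lower on average in the lipophagy livers. Their median difference was -0.31 on the log2(FPKM + 1) scale over the 9 that reached a mean of 0.5 FPKM and were tested, against 0.020 over all 11493 genes tested. With limma and Benjamini-Hochberg adjustment over all tested genes, 0 of the 9 had an adjusted p below 0.05, against 0.0261% of all tested genes, which are 3 genes (Cish, Phlda1 and Foxa1, named after their values were seen). At an unadjusted p below 0.05, 5 of the 9 were lower and 0 were higher, where 7.97% of all tested genes were lower and 11.5% higher. Those shares of all genes correspond to 916 lower and 1327 higher, and with quantile normalization to 899 lower and 745 higher. Leaving out control liver 3 gave 596 lower, and leaving out lipophagy liver 1 gave 801 higher. Because this contrast chose the members, nothing is read from these counts. The table is of whole liver, so fewer cells of a type and less RNA per cell cannot be told apart.

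**Figure D2:**
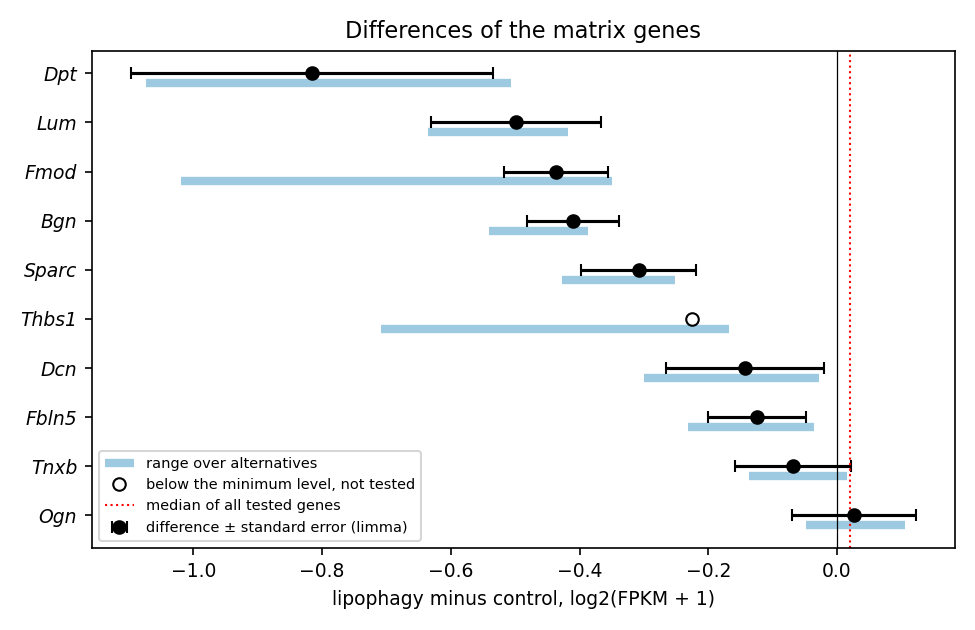
Mean difference between lipophagy and control livers on the log2(FPKM + 1) scale for each matrix gene. Black points are the difference with the standard error of limma, the open point is Thbs1, which was below the minimum level and not tested, blue bars are the range over the processing alternatives and left-out livers, and the dotted line is the median of all tested genes (0.020). Dpt is farthest to the left and Ogn lies at zero.

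Dermatopontin is a small tyrosine-rich protein that binds decorin and collagen and promotes fibril assembly. Dpt (ENSMUSG00000026574, chr1:164796644-164824266 on GRCm38, plus strand, 4 exons) was at 8.20, 11.9 and 13.7 FPKM in control livers 1, 2 and 3 and at 3.45, 8.75 and 6.34 FPKM in lipophagy livers 1, 2 and 3. Its groups overlapped, because lipophagy liver 2 lay above control liver 1, and lipophagy liver 1 stood well below every other liver. The mean was 45.0% lower, a log2 difference of -0.82 (standard error 0.28). It was also the member with the widest spread within groups, 1.67-fold among control livers and 2.54-fold among lipophagy livers. Without lipophagy liver 1 the difference was -0.51, and it was -1.07 without lipophagy liver 2. An estimated 128 to 729 fragments per liver stood behind these values, a counting error of 8.83% at the lowest. An antisense gene, Gm32569, overlaps Dpt, and reads of the pair cannot be told apart if strand was not used in counting.

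The small leucine-rich proteoglycans differed from one another. Biglycan, a fibril-bound proteoglycan that also signals through Toll-like receptors when released, had the tightest separation. Bgn (ENSMUSG00000031375, chrX:73483602-73495933, plus strand) was at 72.6, 68.8 and 69.0 FPKM in control livers and at 52.1, 53.8 and 51.6 FPKM in lipophagy livers. The gap between the groups, from 53.8 to 68.8 FPKM, was much wider than the SD of either group (2.11 and 1.13 FPKM). The mean was 25.1% lower, with a log2 difference of -0.41 (standard error 0.071), which was -0.54 with quantile normalization.

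Lumican (Lum, ENSMUSG00000036446, chr10:97565128-97572703, plus strand), a keratan sulfate proteoglycan of collagen fibrils, was at 12.2, 16.5 and 16.6 FPKM in control livers and at 9.09, 11.3 and 10.6 FPKM in lipophagy livers. The groups were apart, with control liver 1 only slightly above lipophagy liver 2. The mean was 31.6% lower and the log2 difference -0.50 (standard error 0.13).

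Fibromodulin, which shares a collagen-binding site with lumican and can bind TGF-β, had the largest proportional gap. Fmod (ENSMUSG00000041559, chr1:134037254-134048277, plus strand) was at 0.769, 0.959 and 0.864 FPKM in control livers and at 0.356, 0.449 and 0.326 FPKM in lipophagy livers. Every lipophagy liver was far below the lowest control liver, and the mean was 56.3% lower. On the log2(FPKM + 1) scale, which compresses low values, the difference was -0.44 (standard error 0.080). It was -1.02 with a pseudocount of 0.1, -0.64 with 0.5 and -0.35 with quantile normalization. The values rest on an estimated 23.9 to 87.1 fragments per liver, so the counting error reached 20.4% in the lowest liver. The ratio of Fmod to Lum was also lower in every lipophagy liver, 0.0366 ± 0.00509 against 0.0578 ± 0.00552 in control livers (SD, n = 3).

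The groups were not apart for decorin in these FPKM values, which were not scaled to a common sum over genes. Dcn (ENSMUSG00000019929, chr10:97479609-97518143, plus strand), the proteoglycan that wraps collagen fibrils and binds TGF-β, was at 133, 123 and 115 FPKM in control livers and at 130, 95.01 and 113 FPKM in lipophagy livers. The groups overlapped, and lipophagy liver 1 was as high as the controls. Its mean was 8.99% lower, with a log2 difference of -0.14 (standard error 0.12) that ran from -0.30 with quantile normalization to -0.028 without lipophagy liver 2. It was also -0.25 without lipophagy liver 1 and -0.089 without control liver 1. Lum begins 47.0 kb after the end of Dcn on the same strand, and the 2 neighbours kept no fixed ratio, since Lum to Dcn was 0.0915, 0.134 and 0.145 in control livers and 0.06996, 0.119 and 0.0942 in lipophagy livers. The ratio of Bgn to Dcn overlapped between groups as well, at 0.545, 0.558 and 0.603 in control livers and 0.401, 0.566 and 0.458 in lipophagy livers. Kera and Epyc, the next genes of this cluster, were listed at 0 in all 6 livers.

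Osteoglycin (Ogn, ENSMUSG00000021390, chr13:49608046-49624501, plus strand), a proteoglycan of the same family, was the one member with a higher mean FPKM. It was at 0.592, 0.632 and 0.773 FPKM in control livers and at 0.879, 0.547 and 0.674 FPKM in lipophagy livers. The control range lay inside the lipophagy range, and the log2 difference was 0.026 (standard error 0.096), which was -0.049 or 0.092 when lipophagy liver 1 or 2 was left out, -0.0057, 0.012 or 0.072 when control liver 1, 2 or 3 was, 0.049 with a pseudocount of 0.1 and 0.11 with quantile normalization. Between 30.2 and 63.3 estimated fragments per liver were behind it, and Cenpp overlaps it on the opposite strand. In its cluster on chromosome 13, Omd was at 3.23 ± 0.734 and 3.72 ± 0.543 FPKM in control and lipophagy livers (SD, n = 3), with overlapping livers. On chromosome 1, Prelp, the neighbour of Fmod, was at 10.1 ± 1.40 and 8.998 ± 1.67 FPKM and overlapped too.

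Among the matricellular and fibre-associated members of the set, SPARC, a collagen-binding glycoprotein of stellate and endothelial cells, was the most abundant. Sparc (ENSMUSG00000018593, chr11:55394500-55423183, minus strand) was at 35.9, 36.5 and 40.6 FPKM in control livers and at 32.5, 30.5 and 27.8 FPKM in lipophagy livers. The groups did not overlap, though control liver 1 and lipophagy liver 1 lay close together. The mean was 19.7% lower and the log2 difference -0.31 (standard error 0.089), which was -0.43 with quantile normalization.

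Thrombospondin 1, which can activate latent TGF-β and inhibits angiogenesis, was barely expressed. Thbs1 (ENSMUSG00000040152, chr2:118111876-118127133, plus strand) was at 0.556, 0.339 and 0.427 FPKM in control livers and at 0.155, 0.245 and 0.297 FPKM in lipophagy livers. All lipophagy livers were lower than all control livers, and the mean was 47.4% lower. Its overall mean of 0.336 FPKM kept it below the minimum of the test. The log2 difference was -0.22 with a pseudocount of 1, -0.36 with 0.5 and -0.71 with 0.1, and an estimated 20.8 to 84.4 fragments per liver gave a counting error of 21.9% at the lowest. The lincRNA gene Gm29233 overlaps it on the opposite strand.

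Fibulin 5 joins elastin to cell-surface integrins, and tenascin X organises collagen fibrils in connective tissue. Fbln5 (ENSMUSG00000021186, chr12:101746565-101819055, minus strand) was at 1.04, 1.05 and 1.07 FPKM in control livers and at 1.0004, 0.820 and 0.834 FPKM in lipophagy livers. Lipophagy liver 1 lay just under the control livers, so the groups were barely apart, with a log2 difference of -0.12 (standard error 0.076) that was -0.037 with quantile normalization and -0.23 with a pseudocount of 0.1. Tnxb (ENSMUSG00000033327, chr17:34670535-34719815, plus strand) was at 1.21, 1.12 and 1.02 FPKM in control livers and at 0.882, 0.970 and 1.22 FPKM in lipophagy livers. Lipophagy liver 3 was the highest of all 6, and the snRNA gene Gm24389 and the pseudogene Cyp21a2-ps overlap Tnxb on the opposite strand. The log2 difference of -0.068 (standard error 0.090) was 0.015 with quantile normalization, -0.12 with a pseudocount of 0.1, -0.14 or -0.017 when lipophagy liver 3 or 1 was left out and -0.037 when control liver 1 was.

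Non-overlap between the groups was thus seen for Bgn, Lum, Fmod, Sparc and Fbln5, all lower in lipophagy livers, which is 5 of the 9 tested members, and for Thbs1, which was not tested. Over all tested genes, 10.8% were apart in this direction and 15.4% in the other, and 0 of the 9 tested members were apart and higher.

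The order of livers within each group was not used to choose the members. Dpt, Lum and Fmod each had control liver 1 as the lowest control and lipophagy liver 2 as the highest lipophagy liver, an order that 15.5% of all tested genes shared. Dcn had the opposite order, with liver 1 the highest in both groups, which 13.9% of all tested genes shared. The remaining 6 members had neither order. With 3 of 10 and 1 of 10 members, nothing particular to the members is read from these counts. The orders were picked after the values were seen, and the genes within a liver are not independent.

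**Figure D3:**
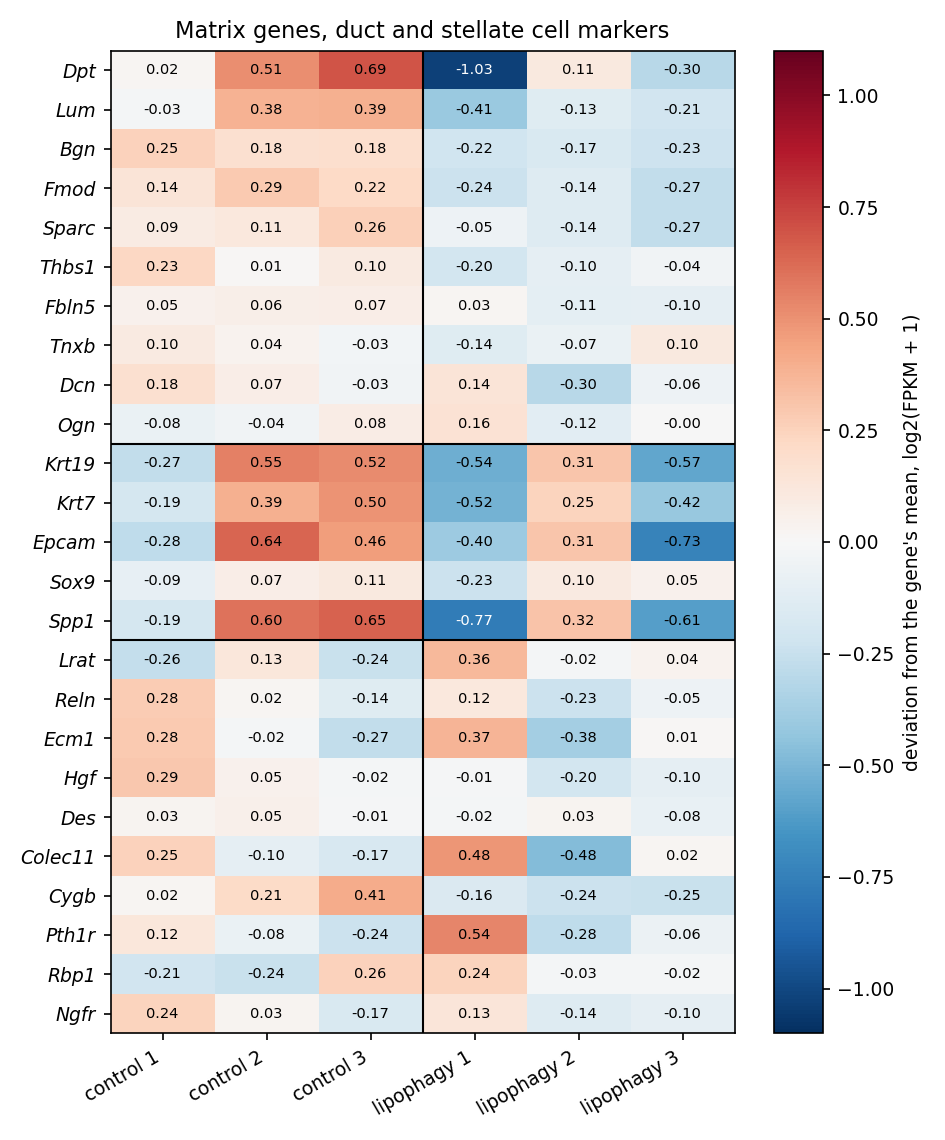
Deviation of each gene from its own mean over the 6 livers on the log2(FPKM + 1) scale, with the 10 matrix genes on top, the 5 bile duct markers in the middle and the 10 stellate cell markers below. Red is above and blue below the gene's mean. Dpt shares with Krt19, Krt7, Epcam and Spp1 low values in lipophagy livers 1 and 3 and a higher one in lipophagy liver 2, while Sox9 is low in lipophagy liver 1 alone among the lipophagy livers, and Dcn shares with Ecm1 and Colec11 high values in liver 1 of both groups.

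The order of Dpt, Lum and Fmod was found in several lists and was less frequent in others. Of tested genes, 1 of 15 in the TGF-β list and 1 of 15 enzymes of chondroitin and dermatan sulfate chains had it. So did 2 of 9 other matricellular genes, 3 of 11 cell surface receptors, 0 of 10 stellate cell markers and 0 of 7 endothelial markers. It was that of 6 of 14 tested elastic fibre genes, 5 of 12 collagen fibril partners and 2 of 4 other small leucine-rich proteoglycans, and of the bile duct markers. All 5 of Krt19, Krt7, Epcam, Sox9 and Spp1 had control liver 1 lowest and lipophagy liver 2 highest. Krt19, a keratin of bile duct cells, was at 1.91, 4.16 and 4.05 FPKM in control livers and at 1.43, 3.36 and 1.37 FPKM in lipophagy livers. Epcam, an epithelial adhesion protein of ducts, was at 2.17, 4.98 and 4.29 FPKM and at 1.92, 3.75 and 1.31 FPKM. All 5 duct markers were lower on average in the lipophagy livers with overlapping groups, their sum lay between 137 and 247 FPKM in control livers and between 92.0 and 196 FPKM in lipophagy livers, and most of it was Spp1, which other cell types make as well. Of the 5 tested markers of portal fibroblasts and capsule, 3 (Cd34, Entpd2 and Mfap4) had this order too, and the sum over all 10 listed was 11.0 to 13.2 FPKM in control livers and 9.03 to 10.8 FPKM in lipophagy livers. Their part in the lower levels of Dpt, Lum and Fmod was not tested.

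The order of Dcn was also that of markers of stellate and sinusoidal cells. Of 10 stellate cell markers, 6 (Reln, Ecm1, Hgf, Colec11, Pth1r and Ngfr) were highest in liver 1 of both groups, as were 6 of 7 endothelial markers and 4 of 6 macrophage markers tested. Ecm1, a stellate cell matrix protein, was at 48.0, 38.7 and 32.3 FPKM in control livers and at 51.0, 30.01 and 39.6 FPKM in lipophagy livers. The 10 stellate markers split evenly, 5 lower and 5 higher, with a median log2 difference of -0.022, and their summed level was 108 to 125 FPKM in control and 92.7 to 144 FPKM in lipophagy livers. Cygb, cytoglobin, was the one stellate marker with an unadjusted p below 0.05 and with groups apart, at 8.14 ± 1.22 FPKM in control and 5.75 ± 0.219 FPKM in lipophagy livers (SD, n = 3; log2 difference -0.43, standard error 0.11, adjusted p = 0.135, limma). The summed endothelial markers reached 22.1 to 28.0 and 26.3 to 42.4 FPKM, most of it Clec4g, whose groups overlapped. Their part in the level of Dcn was not tested.

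Hepatocyte markers were present at high level in every library. Albumin (Alb) was at 35470 to 39159 FPKM in control livers and 45009 to 64089 FPKM in lipophagy livers, and the 7 hepatocyte markers summed to 57512 to 64147 and 69477 to 92137 FPKM, most of it Alb. Alb, Ttr and Serpina1c were higher without overlap, while Cyp2e1, Tat and Hnf4a had higher means with overlapping groups. Apoa1 had a lower mean, at 10834 FPKM in control and 10317 FPKM in lipophagy livers, and its groups overlapped. FPKM is relative to the mapped fragments of a library, and its sum over all genes need not be equal between libraries. That sum was 622696 to 681138 in control livers and 709993 to 782392 in lipophagy livers. The part of these sums and of the abundant transcripts in the matrix values was not tested. Fat tissue markers were near zero, with Lep at 0 in all livers, Adipoq at most 0.0395 FPKM and a summed level of 1.12 to 1.74 FPKM in control and 0.818 to 3.64 FPKM in lipophagy livers, most of it Plin4. Mesothelial markers summed to 0.496 to 0.686 and 0.277 to 0.479 FPKM, with Upk1b at 0. Markers of smooth muscle summed to 10.4 to 12.8 FPKM in control and 7.56 to 9.02 FPKM in lipophagy livers, platelet markers to 7.12 to 9.64 and 6.36 to 8.66 FPKM, lymphocyte markers to 3.66 to 3.96 and 2.90 to 3.15 FPKM, and macrophage markers to 98.6 to 103 and 95.3 to 101 FPKM. Single macrophage markers differed in either direction, with groups apart at log2 differences of -0.38 for Cd68, -0.28 for Csf1r and 0.40 for Vsig4. None of these lists had a gene with an adjusted p below 0.05 (limma), and the unadjusted count below 0.05 was 0 to 3 genes per list.

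By the rule for likeness, the 5 genes outside the set whose deviations over the 6 livers lay nearest to those of Dpt were Casp12 (distance 0.397), Ccnb2 (0.459), 6030419C18Rik (0.507), Spp1 (0.509) and S100a6 (0.526), where the distance is Euclidean on the log2(FPKM + 1) scale. Casp12, a caspase of the endoplasmic reticulum, was at 1.84, 2.84 and 3.25 FPKM in control livers and at 0.787, 2.47 and 1.43 FPKM in lipophagy livers. Spp1, the secreted phosphoprotein osteopontin, was at 131, 227 and 236 FPKM in control livers and at 87.4, 187 and 97.7 FPKM in lipophagy livers. Each of the 5 was lowest in lipophagy liver 1 and had overlapping groups.

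Related lists, also chosen with earlier results of these data known, place these genes among their partners. Of all tested genes, 7.97% were lower and 11.5% higher at an unadjusted p below 0.05 (limma). Nothing is read from the counts of the lists here and below. Of the 12 tested collagen fibril partners, 11 were lower, with a median log2 difference of -0.37 (0.020 over all tested genes). At an unadjusted p below 0.05, 9 were lower and 0 higher, and 0 had an adjusted p below 0.05 (limma). Col1a1, the main chain of type I collagen, had the largest log2(FPKM + 1) drop, from 6.35 ± 0.565 to 3.41 ± 0.703 FPKM (SD, n = 3; log2 difference -0.75, standard error 0.13, adjusted p = 0.103, limma). Bmp1, the procollagen C-proteinase, was the one tested gene with a higher mean, at 19.4 ± 0.754 and 21.3 ± 0.788 FPKM (log2 difference 0.13, standard error 0.074, adjusted p = 0.345, limma), without overlap, and its difference was 0.036 with quantile normalization.

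All 14 tested genes of elastic fibres and fibulins had lower means, with a median of -0.27, and 11 had an unadjusted p below 0.05 while 0 passed the adjustment (limma). The unadjusted count was 5 without control liver 2, control liver 3, lipophagy liver 1 or lipophagy liver 3, and 7 with quantile normalization. Eln, tropoelastin, had the largest log2(FPKM + 1) drop, from 2.23 ± 0.918 to 1.03 ± 0.517 FPKM (SD, n = 3; log2 difference -0.66, standard error 0.24, adjusted p = 0.212, limma, and -1.05 with a pseudocount of 0.1), and its groups overlapped. Ltbp4, a latent TGF-β binding protein, was nearest to no difference at -0.029 (standard error 0.13, adjusted p = 0.919, limma), and it turned to 0.0046 with quantile normalization, 0.058 without control liver 1 and 0.068 without lipophagy liver 2, against -0.066, -0.079, -0.15 and -0.0042 without control liver 2, control liver 3, lipophagy liver 1 and lipophagy liver 3.

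For other matricellular proteins, 7 of 9 tested genes were lower, with a median of -0.26. At an unadjusted p below 0.05, 4 were lower (Fstl1, Sparcl1, Thbs2 and Postn) and 0 higher, 2 without control liver 3, and 0 passed the adjustment (limma). Spp1 had the largest log2(FPKM + 1) drop (log2 difference -0.71, standard error 0.31, adjusted p = 0.265, limma), and its groups overlapped. Smoc1, a SPARC-related protein, had the largest log2(FPKM + 1) rise, from 18.1 ± 0.931 to 22.0 ± 3.51 FPKM (SD, n = 3; log2 difference 0.26, standard error 0.12, adjusted p = 0.276, limma), and its difference was 0.15 without lipophagy liver 1 or with quantile normalization.

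The rest of the proteoglycan family was mostly below the minimum level, and the most abundant of it was Tsku, tsukushi, at a mean of 46.1 FPKM in control and 46.6 FPKM in lipophagy livers. Of 13 other small leucine-rich proteoglycans, 4 reached the minimum level, 2 of them lower, with a median of -0.058, and 1 had an unadjusted p below 0.05 (0 with quantile normalization). Podn, podocan, had the largest log2(FPKM + 1) drop, from 1.43 ± 0.186 to 0.986 ± 0.141 FPKM (SD, n = 3; log2 difference -0.29, standard error 0.093, adjusted p = 0.182, limma), and its difference was -0.49 with a pseudocount of 0.1. Omd, osteomodulin, had the largest log2(FPKM + 1) rise (log2 difference 0.16, standard error 0.14, adjusted p = 0.527, limma), which was 0.078 or 0.30 when control liver 1 or 3 was left out and 0.26 or 0.11 when lipophagy liver 1 or 2 was. No gene of this list had an adjusted p below 0.05 (limma).

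**Figure D4:**
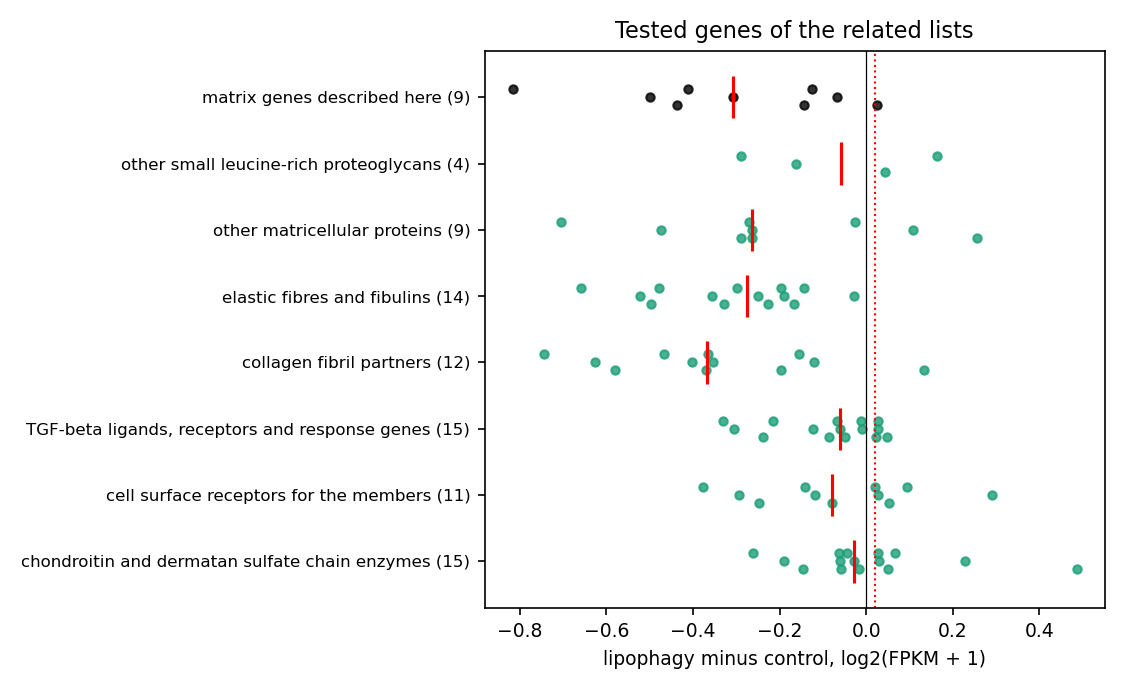
Difference between lipophagy and control livers on the log2(FPKM + 1) scale for each tested gene (points) of the matrix genes and of 7 related lists, with the number of tested genes in brackets. Red bars are list medians and the dotted line the median of all tested genes (0.020). Medians of the collagen, elastic fibre and matricellular lists lie between -0.37 and -0.26, and those of the proteoglycan, TGF-β, receptor and chain enzyme lists between -0.079 and -0.028.

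Signalling genes, receptors and enzymes connected to the matrix proteins were on either side of zero. Of 15 tested genes of TGF-β ligands, receptors and response genes, 11 were lower, with a median of -0.061. At an unadjusted p below 0.05, 3 were lower (Tgfb1, Acvrl1 and Pmepa1), 0 were higher, 1 was left without control liver 2 or control liver 3, 5 were found with no filter, and 0 passed the adjustment (limma). Tgfb1, the main ligand, had the largest log2(FPKM + 1) drop, from 3.90 ± 0.1304 to 2.91 ± 0.308 FPKM (SD, n = 3; log2 difference -0.33, standard error 0.085, adjusted p = 0.144, limma), without overlap. Smad4, the shared mediator, was the highest at 0.048 (standard error 0.071, adjusted p = 0.730, limma).

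Cell surface receptors for these proteins were mixed, with 6 of 11 tested genes lower and a median of -0.079. Unadjusted p was below 0.05 for 2 lower genes (Tlr2 and Lrp1) and 1 higher gene (Egfr), for 1 gene in all without control liver 1 or control liver 3, and 0 passed the adjustment (limma). Tlr2, a receptor of soluble biglycan, had the largest log2(FPKM + 1) drop, from 2.85 ± 0.416 to 1.97 ± 0.477 FPKM (SD, n = 3; log2 difference -0.38, standard error 0.13, adjusted p = 0.202, limma). Egfr, which decorin binds, had the largest log2(FPKM + 1) rise, from 79.8 ± 1.02 to 98.5 ± 13.8 FPKM (SD, n = 3; log2 difference 0.29, standard error 0.11, adjusted p = 0.219, limma), which was 0.15 with quantile normalization.

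Enzymes that build the chondroitin and dermatan sulfate chains of decorin and biglycan had a median near zero (-0.028, 9 of 15 tested genes lower). Chpf, a chondroitin polymerising factor, had the largest log2(FPKM + 1) drop, from 0.852 ± 0.1199 to 0.546 ± 0.1305 FPKM (SD, n = 3; log2 difference -0.26, standard error 0.094, adjusted p = 0.205, limma), and its difference was -0.17 with quantile normalization and -0.57 with a pseudocount of 0.1. Chst13, a chondroitin 4-sulfotransferase, had the largest log2(FPKM + 1) rise, from 1.77 ± 0.657 to 2.81 ± 0.303 FPKM (SD, n = 3; log2 difference 0.49, standard error 0.16, adjusted p = 0.193, limma), which was 0.32 without control liver 1. These were the 2 genes of the list with an unadjusted p below 0.05, 1 was left with quantile normalization, a minimum of 1 FPKM or without control liver 3, 0 were left without lipophagy liver 3, and 0 passed the adjustment (limma).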

How the data were processed

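RNA of 3 control and 3 lipophagy livers was sequenced as stranded poly(A) libraries, paired end. The authors deposited FPKM values for 24346 gene names and 6 livers, not counts. The submitters' processing notes name TopHat2 2.0.13, Bowtie2 2.2.3, SAMtools 0.1.19, Cufflinks 2.2.1 and mm10. The annotation is not given in the sources used here. Groups and replicate numbers were taken from sample titles. The labels name a HiSeq and the methods a NovaSeq instrument.

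The values were put on the log2(FPKM + 1) scale. Genes whose mean reached 0.5 FPKM (11493) entered a two-sided test in limma 3.58.1 (R 4.3.3) with an intensity trend and no covariates, and p-values were adjusted over all of these genes by Benjamini-Hochberg. Steps of low FPKM values gave the relative depth of the libraries, and with GENCODE M21 transcript lengths (GRCm38) less 150 bases an estimated 22.8 to 33.9 M fragments per liver, which covers counting error only and depends on the length assumed. The labels number the samples without stating separate animals, so p-values measure only the spread between these samples, which may be technical. Promoter sequences are RefSeq's (GRCm38.p6). Tables and plots used Python 3.11.15, pandas 2.3.3 and matplotlib 3.10.9.

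The members and lists were chosen with earlier results of these data known. Named genes are all members, in each of the 7 related lists (not the cell type marker lists) the tested genes with the largest rise and drop on the log2(FPKM + 1) scale and any gene past the adjusted threshold, and the 5 genes nearest to Dpt. Others were named after their values were seen. Alternatives were other pseudocounts and filters, quantile or median scaling, no trend, a replicate block and each liver left out.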

Additional observations from a re-analysis of the deposited data

How the results depend on the processing

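Of the 10 genes, Dpt, Dcn, Lum, Bgn, Fmod, Sparc, Thbs1 and Fbln5 had a lower mean in lipophagy livers in each of the 10 to 15 alternatives in which they had a value, Tnxb in 14 of 15 and Ogn in 2 of 14. The count of members with an adjusted p below 0.05 was 0 in all 15 alternatives (limma). The median difference of the tested members was -0.36 to -0.25 with each liver left out. The number of genes with an adjusted p below 0.05 was 3, and it was 1 with no filter and 2 to 11 with each liver left out (7, 5 and 11 without control liver 2, lipophagy liver 2 and lipophagy liver 3). Ltbp4 was at 0.0046 with quantile normalization and between -0.15 and 0.068 with each liver left out. Unadjusted counts of the lists that moved by over 1.5 times are given beside them above, and the cause was not tested.

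With the replicate number as a block, 43 genes had an adjusted p below 0.05, among them 1 collagen fibril partner (Col1a1), and 0 members. Deviations of livers with the same number had correlations across genes of 0.250, 0.234 and -0.0565, so the replicate block was not taken as a pairing, and control liver 3 correlated best with lipophagy liver 2 (0.251).

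Thbs1, Fmod and Ogn rested on 20.8 to 87.1 estimated fragments per liver, with counting errors of 21.9%, 20.4% and 18.2% in their lowest livers. A smallest detectable difference was not computed.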
